A study of Sus scrofa with 79 samples.

Results

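Expression of 4 peptidases that sit on the outer face of the enterocyte was followed across jejunum, ileum and blood of pigs: ANPEP (aminopeptidase N), ENPEP (glutamyl aminopeptidase), DPP4 (dipeptidyl peptidase 4) and ACE (angiotensin I converting enzyme). The members were the probes of the porcine Agilent array whose transcript name in the scanner files belongs to 1 of these symbols in RefSeq. This gave 4 genes and 9 probes of 43603 probes, with 3 probes for ANPEP, 3 for ENPEP, 1 for DPP4 and 2 for ACE. The 79 arrays each held RNA of a pool of 4 piglets. T1 piglets were left undisturbed, T2 piglets were injected with the antibiotic tulathromycin on day 4 of life, and T3 piglets received that injection together with stressful management (tail docking, clipping and weighing). Jejunum and ileum were sampled at day 8, 55 and 176, and blood at day 8. Each group had 4 pools, except for 3 pools in ileum T2 at day 8, in ileum and jejunum T2 at day 55, in jejunum T2 at day 176 and in ileum T3 at day 176.

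Brush border peptidases finish the digestion of dietary protein. Aminopeptidases such as ANPEP and ENPEP take residues off the front end of a peptide, ENPEP preferring acidic ones. DPP4 removes a dipeptide from the front end when that dipeptide ends in proline or alanine, and ACE removes a dipeptide from the back end. The products enter the cell as free amino acids or, as small peptides, through the transporter SLC15A1. The same enzymes act on signalling peptides: ACE and ENPEP on angiotensins, DPP4 on incretins and chemokines. ANPEP is also a receptor for porcine coronaviruses. All of them are made outside the epithelium too, ACE by endothelium, DPP4 by T cells and ANPEP by myeloid cells, and in whole tissue fewer cells of a type and less RNA per cell cannot be told apart.

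All 9 probes were detected in the intestine. They were well above background on every jejunum and ileum array, with 1 exception, ACE probe A_72_P232662 on 1 of 11 ileum arrays of day 55. The probes lie on their own scales, so that levels were compared between samples of 1 probe or gene and never between genes. Well above background were 42.4% to 73.1% of spots on ileum arrays, 46.9% to 75.2% on jejunum arrays and 34.8% to 44.1% on blood arrays.

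Some arrays stood apart and some labels were in doubt, which touches several of the results. On jejunum T2 pool 8 of day 176, 10.31% of the probes compared lay more than 4 log2 units below the other arrays of its tissue and day. This share was 2.214% on jejunum T2 pool 8 of day 8, 0.7152% on jejunum T3 pool 4 of day 176 and 0.6766% on ileum T1 pool 11 of day 8, and at most 0.2811% on the other 63 intestinal arrays. Results that rest on these arrays are given with and without 3 of them. Here "without the 3 arrays" means without the day 176 and day 8 jejunum pools 8 and ileum pool 11. Jejunum T3 pool 4 of day 176 stays in such fits. The authors' table of normalised values carries other names for the tissues of day 8 and 55 than the scanner files: its columns named ileum day 55 hold the arrays labelled ileum day 8, those named ileum day 8 the arrays labelled jejunum day 8, those named jejunum day 55 the arrays labelled ileum day 55, and 11 of 12 of those named jejunum day 8 the arrays labelled jejunum day 55, the last matching no array. The labels of the scanner files are used here. By these labels the proximal marker GATA4 had a mean log2 intensity of 7.43 in jejunum and 2.80 in ileum at day 55, and of 6.51 and 2.33 at day 176, with no overlap. Under the names of the authors' table GATA4 would be 2.80 in jejunum and 7.27 in ileum at day 55, the reverse of day 176. FABP6, the ileal bile acid binding protein, was 17.83 to 18.31 in ileum at day 55, but some jejunum pools reached the same level (14.02 to 18.52). The ranges of FABP6 overlapped at day 176 too, with 18.29 to 18.67 in ileum and 7.52 over a median of 18.14 to 18.45 in jejunum. At day 8 GATA4 did not separate the tissues, with 7.73 ± 0.43 (SD, n = 12) in jejunum and 7.27 ± 0.71 (n = 11) in ileum. FABP6 lay between 5.82 and 16.16 in jejunum and between 5.62 and 16.49 in ileum at day 8, so that the day 8 tissues could not be checked by these markers. The arrays of a blood or day 176 column carried the same name in both sources.

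Levels are given as quantile normalised log2 intensity, in which 1 unit is a doubling of signal. A gene was called when its adjusted p in limma, over all 32054 genes tested in the intestine, was under 0.05 and its fold change over 1.5. Between jejunum and ileum none of the 4 genes was called at day 8, 2 at day 55 and 2 at day 176, where 2.75%, 39.5% and 24.2% of all genes were called. Between ages in jejunum 2 were called from day 8 to 55, 3 from day 55 to 176 and 2 from day 8 to 176, against 37%, 36.9% and 48.9% of all genes. In ileum 1 was called for each of these spans, against 47.4%, 28.5% and 48.6%. With 4 genes these counts were near those of the array as a whole, and the results below concern each gene by itself. Every age of the intestine was hybridised on slides that held no other intestinal age, so that age and slide cannot be told apart. At day 55 no slide held both jejunum and ileum, so that tissue and slide cannot be told apart at that age either.

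**Figure D1:**
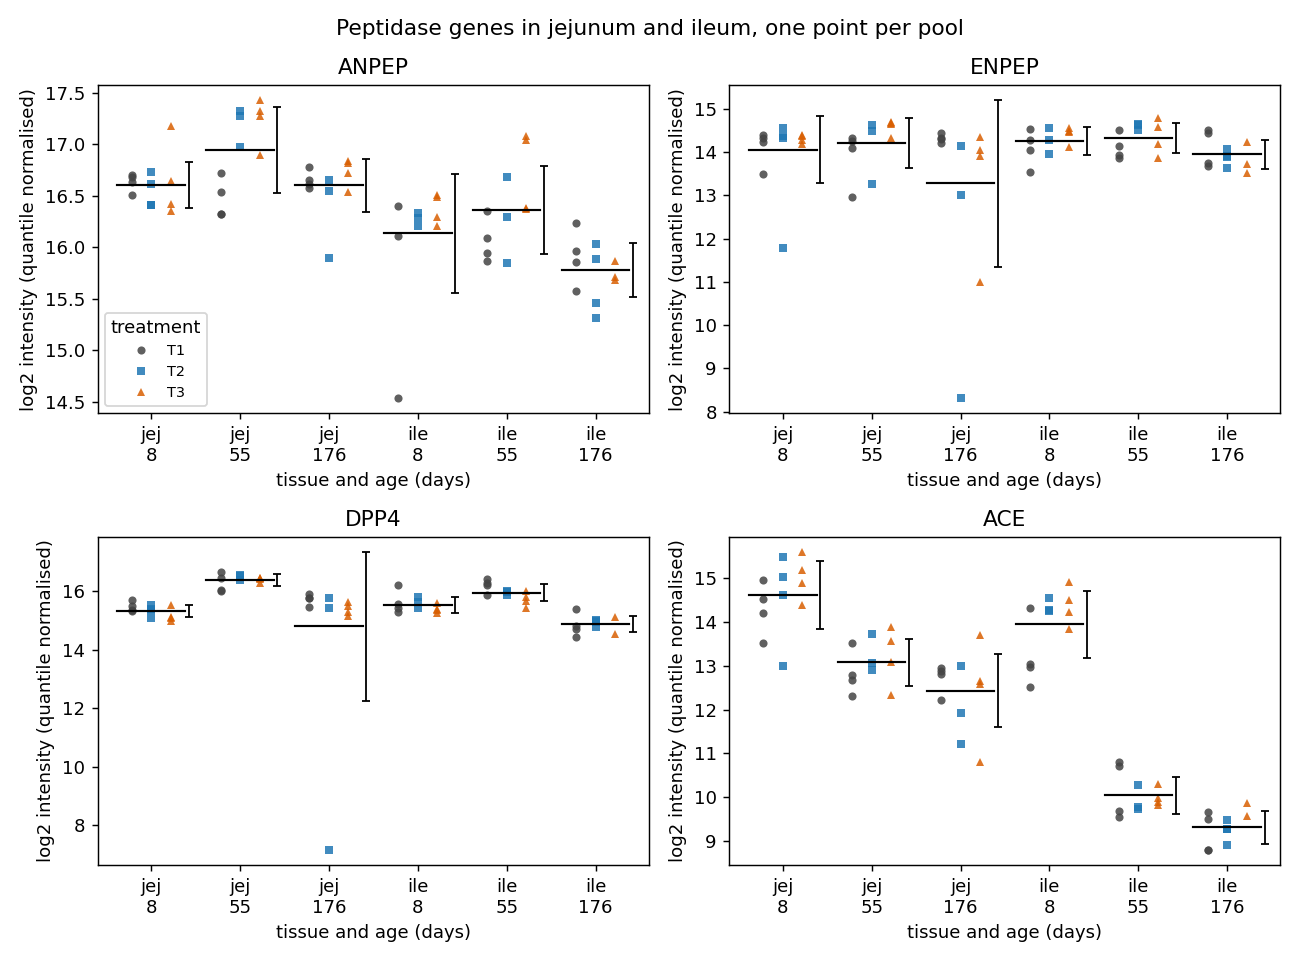
Log2 intensity (quantile normalised, y axis) of ANPEP, ENPEP, DPP4 and ACE in jejunum (jej) and ileum (ile) at day 8, 55 and 176 (x axis). Each point is a pool, coloured by treatment, the black line is the mean over all pools and the bar 1 SD; ACE in ileum drops from 13.94 at day 8 to 10.05 at day 55, and 1 jejunum pool of day 176 lies at 7.15 for DPP4.

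ANPEP had its highest levels in jejunum. Its mean log2 intensity was highest in jejunum at day 55 (16.94 ± 0.42, SD, n = 11), followed by jejunum at day 8 (16.61 ± 0.22, n = 12), jejunum at day 176 (16.60 ± 0.26, n = 11), ileum at day 55 (16.36 ± 0.43, n = 11), ileum at day 8 (16.14 ± 0.58, n = 10) and ileum at day 176 (15.78 ± 0.27, n = 11). No neighbours in this order differed by more than their SD. The jejunum levels nevertheless lay above the ileum levels of the same day. In jejunum at day 176 the pools ran from 15.90 over a median of 16.65 to 16.84, and in ileum from 15.31 over 15.86 to 16.24. The ranges overlapped through the lowest jejunum pool, T2 pool 8.

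Jejunum exceeded ileum for ANPEP by 0.61 log2 units at day 55 (SE 0.13, limma adjusted p = 4.97e-04) and by 0.80 at day 176 (SE 0.13, adjusted p = 8.83e-05). At day 8 the difference was 0.50 (SE 0.17, adjusted p = 0.0857) and was not called. Compared pool number by pool number, jejunum was higher in 10 of 10 pools at day 8, 11 of 11 at day 55 and 10 of 10 at day 176. The day 8 difference was not called either when the tissues of the same piglets were paired, although leaving out ileum T1 pool 12 alone brought it to 0.62 (adjusted p = 0.0158). The day 8 value leans on ileum T1 pool 11, at 14.53 the lowest of all ANPEP values, and the median of the differences between pools was 0.18. The call at day 55 was close to the fold limit, while with 75th percentile scaling the difference was 1.26. It was lost when ileum T2 pool 5, ileum T3 pool 3 or ileum T3 pool 4 was left out, with 0.54 as the lowest difference, and with slide as a random block, with 0.58 (adjusted p = 0.0819). The call at day 176 stood in every fit that left out 1 array, but not within the slide that holds jejunum T3 and ileum T1 (0.82, adjusted p = 0.0536). Of the 3 probes, A_72_P632095 was called at day 55 (0.82) and at day 176 (0.91), and A_72_P566249 at day 176 (0.92). No age difference of ANPEP was called. In ileum day 176 minus day 55 was -0.57 (adjusted p = 0.00104), just under the fold limit, and with slide as a random block (-0.61, adjusted p = 0.0183) or in 9 of 67 fits without 1 array this difference was called. Probe A_72_P632095 by itself was called for day 176 minus day 8, with -0.69 in jejunum and -0.75 in ileum.

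ENPEP had no called difference between the tissues at any day. Its means ranged from 14.33 ± 0.34 (n = 11) in ileum at day 55 to 13.27 ± 1.93 (n = 11) in jejunum at day 176, and no neighbours in the order differed by more than their SD. Jejunum was the higher tissue in 5 of 11 pools at day 8, 5 of 11 at day 55 and 4 of 10 at day 176. In jejunum ENPEP fell by 1.04 from day 55 to 176 (SE 0.37, limma adjusted p = 0.0158) and the difference of day 176 minus day 8 was -0.90 (SE 0.36, adjusted p = 0.0264). Both calls rested on few arrays. The jejunum pools of day 176 had 14.31, 14.20, 14.32 and 14.45 in T1, 13.00, 14.14 and 8.31 in T2, and 14.34, 13.91, 14.05 and 10.997 in T3. Most of these pools lay near 14, and those below were T2 pools 5 and 8 and T3 pool 4. Without the 3 arrays the differences were -0.46 (adjusted p = 0.105) and -0.54 (adjusted p = 0.0473, under the fold limit). The low T3 pool 4, at 10.997, was still part of these 2 values. The call from day 55 to 176 was also lost when T3 pool 4 or T2 pool 8 was left out, and that from day 8 to 176 when 1 of these pools or jejunum T2 pool 5 of day 8 was left out.

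The low ENPEP pools came mostly from 1 of its 3 probes. On A_72_P604233 the jejunum pools of day 176 read 15.21 to 15.60, except for T2 pool 5 at 11.59, T2 pool 8 at 6.21 and T3 pool 4 at 5.68. The same probe read 7.06 on jejunum T2 pool 8 of day 8 and 11.11 on jejunum T2 pool 5 of day 55. Probe A_72_P035326 was low on a single array, jejunum T2 pool 8 of day 176, with 7.65 against 15.90 to 16.41 on the other 10. Probe A_72_P442776 was not low on that array (11.07). The last of these probes showed an age difference of its own in both tissues: day 176 minus day 8 was -1.10 in jejunum (SE 0.20, limma adjusted p = 3.52e-06) and -1.18 in ileum (SE 0.20, adjusted p = 1.54e-06). The probes of ENPEP thus did not move together, and the mean over them is to be read with that in view.

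DPP4 was highest at day 55 in both tissues by the labels of the scanner files. Under the names of the authors' table the jejunum means would be 16.38 at day 8 and 15.96 at day 55, and the order of these ages in jejunum would turn. Its mean was 16.38 ± 0.20 (n = 11) in jejunum and 15.96 ± 0.28 (n = 11) in ileum at day 55, 15.55 ± 0.28 (n = 11) in ileum and 15.33 ± 0.22 (n = 12) in jejunum at day 8, and 14.88 ± 0.29 (n = 10) in ileum and 14.81 ± 2.55 (n = 11) in jejunum at day 176. The steps from the first to the second, from the second to the third and from the fourth to the fifth of these exceeded the larger SD, and the other steps did not. In jejunum the pools ran from 14.99 over a median of 15.36 to 15.69 at day 8 and from 16.00 over 16.44 to 16.64 at day 55, without overlap. At day 176 they ran from 15.16 to 15.91, except for T2 pool 8 at 7.15. This 1 pool sets the SD of the group and takes jejunum at day 176 to the last place in the order, as its mean without the 3 arrays was 15.57 ± 0.24 (n = 10).

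In jejunum DPP4 rose by 1.06 from day 8 to 55 (SE 0.42, limma adjusted p = 0.0321) and fell by 1.75 from day 55 to 176 (SE 0.43, adjusted p = 6.57e-04). Without the 3 arrays the latter was -0.81 (adjusted p = 3.73e-08), so that the fall was called with and without the low pool but differed in size by over 1.5 times. The rise was not called with slide as a random block (1.02, adjusted p = 0.161). Day 176 minus day 8 was -0.69 in jejunum (adjusted p = 0.152), and 0.25 when T2 pool 8 was left out. In ileum DPP4 fell by 1.08 from day 55 to 176 (SE 0.45, adjusted p = 0.0494). The groups did not overlap, with 15.42 to 16.40 at day 55 and 14.44 to 15.41 at day 176, but the call stood in 4 of 67 fits that each left out 1 array. The fit took its error from all arrays, including the low jejunum pool, and without the 3 arrays the same difference had an adjusted p of 5.13e-11. With 75th percentile scaling it was -0.67 and not called (adjusted p = 0.240). Ileum T3 pool 2 of day 176 had no value for the DPP4 probe and was left out of its fit.

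Between the tissues DPP4 showed a difference of 0.43 in favour of jejunum at day 55 (SE 0.10, limma adjusted p = 0.00124), below the fold limit. With 75th percentile scaling it was 1.11 and called. At day 8 the difference was -0.22 (SE 0.11, adjusted p = 0.205), with jejunum higher in 2 of 11 pools, and at day 176 it was -0.23 (SE 0.75, adjusted p = 0.844), although jejunum was higher in 8 of 9 pools. Jejunum T2 pool 8 sets the sign at day 176. Without the 3 arrays jejunum was higher by 0.71 (adjusted p = 7.74e-04), which was called. The change of DPP4 from day 8 to 55 was larger in jejunum by 0.66, which was not called over all arrays (SE 0.60, adjusted p = 0.413) and was called without the 3 arrays (adjusted p = 3.54e-04).

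**Figure D2:**
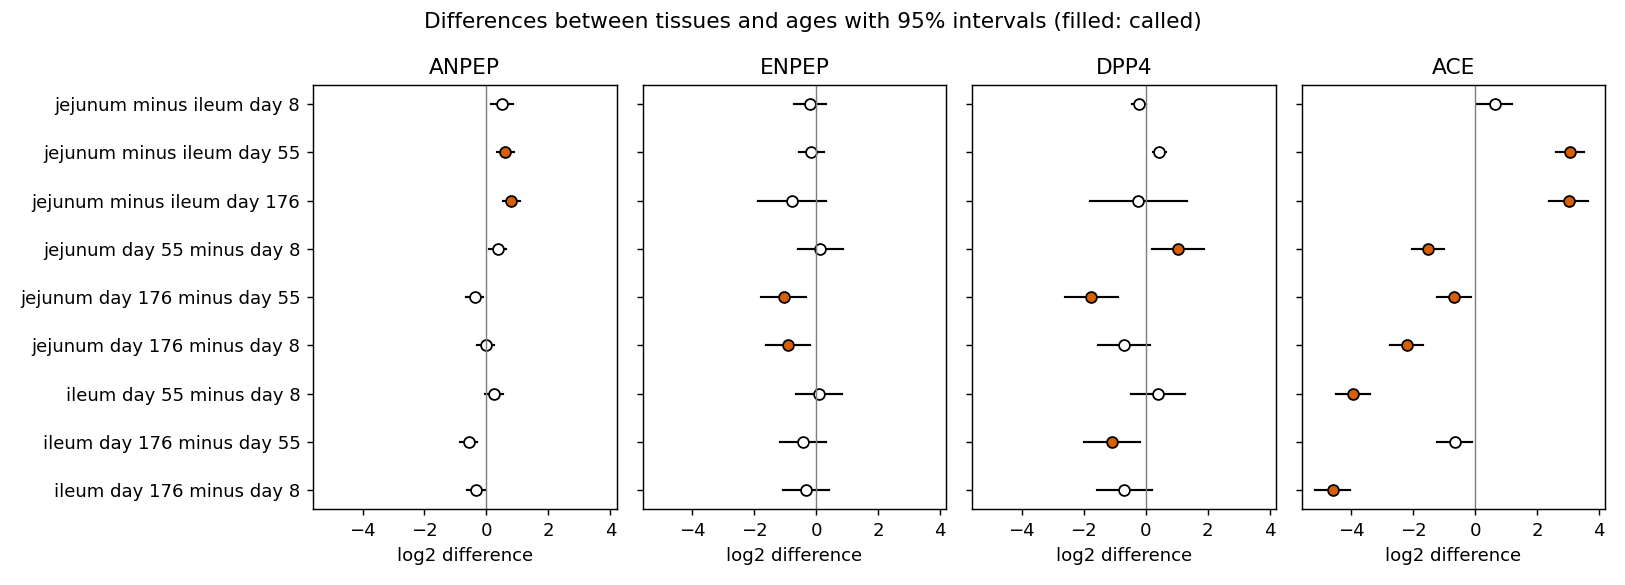
Log2 differences (x axis) of the 4 genes between the tissues at each age and between ages within each tissue (y axis), with 95% intervals. Filled points were called (adjusted p under 0.05 and fold over 1.5); ACE has the largest differences of the 4 genes, from -4.60 to 3.05, and the wide DPP4 and ENPEP intervals of day 176 include the jejunum pool that lies apart.

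ACE changed most of the 4 genes, both with age and along the gut. Its mean log2 intensity was 14.61 ± 0.77 (n = 12) in jejunum and 13.94 ± 0.76 (n = 11) in ileum at day 8, 13.08 ± 0.54 (n = 11) in jejunum at day 55, 12.43 ± 0.84 (n = 11) in jejunum at day 176, 10.05 ± 0.42 (n = 11) in ileum at day 55 and 9.31 ± 0.37 (n = 10) in ileum at day 176. The widest step in this order, 2.39 between jejunum at day 176 and ileum at day 55, had no overlap of pools. The first 2 places, and jejunum at day 55 and 176, did not differ beyond their SD. At day 55 the jejunum pools ran from 12.32 over a median of 13.07 to 13.88, and the ileum pools from 9.54 over 9.88 to 10.80. All pools of jejunum lay above all pools of ileum, at day 55 as at day 176.

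Jejunum exceeded ileum for ACE by 3.05 at day 55 (8.30-fold, SE 0.21, limma adjusted p = 2.62e-09) and by 3.02 at day 176 (8.12-fold, SE 0.30, adjusted p = 5.91e-07). These differences were called in every fit that left out 1 array. At day 55 no slide held both tissues, so that the difference of that age cannot be told apart from slide. On the slide of day 176 that holds both tissues the value was 3.25 (adjusted p = 0.0155), but it sets jejunum T3 against ileum T1, so that tissue and treatment cannot be told apart in it. At day 8 the difference was 0.63 (SE 0.27, adjusted p = 0.148) over all arrays and 0.78 without the 3 arrays (adjusted p = 0.0483, called, as it was without jejunum T2 pool 8 or ileum T1 pool 12 alone), with jejunum higher in 9 of 11 pools. Between jejunum T1 and ileum T3, which share a slide at day 8, it was -0.08 (adjusted p = 0.976), a value in which tissue and treatment cannot be told apart, as ileum T3 lay 1.16 above ileum T1. The difference between the tissues was thus called at the older ages, and at day 8 it depended on which arrays were used. Had the names of the authors' table been taken, the arrays with a mean of 10.05 would stand for jejunum and those with 13.94 for ileum at day 55, and the direction at day 55 would turn. At day 176, where both sources give the same names, it would not. The proximal marker GATA4 would turn at day 55 as well, to 2.80 in jejunum and 7.27 in ileum.

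With age ACE fell in both tissues. In ileum it fell by 3.94 from day 8 to 55 (15.4-fold, SE 0.27, limma adjusted p = 2.17e-18) and day 176 minus day 8 was -4.60 (24.2-fold, SE 0.28, adjusted p = 3.21e-20). In jejunum it fell by 1.53 from day 8 to 55 (2.88-fold, SE 0.26, adjusted p = 2.39e-06) and day 176 minus day 8 was -2.21 (4.63-fold, SE 0.26, adjusted p = 2.31e-10). The fall from day 8 to 55 was larger in ileum than in jejunum by the labels of the scanner files. Under the names of the authors' table ileum would go from 14.61 to 13.94 and jejunum from 13.08 to 10.05, and the larger fall would be that of jejunum. The difference of these changes was 2.42 (SE 0.37, adjusted p = 8.44e-07), and 34.4% of all genes were called in the same comparison. From day 55 to 176 ACE fell by a further 0.69 in jejunum (SE 0.27, adjusted p = 0.0299) and differed by -0.66 in ileum (SE 0.28, adjusted p = 0.0569). The jejunum call was lost without the 3 arrays (-0.55), with slide as a random block (-0.64, adjusted p = 0.156), and in 6 of 67 fits that left out 1 array (jejunum T1 pool 10, T2 pool 6 or T3 pool 3 of day 55, or T1 pool 11, T2 pool 8 or T3 pool 4 of day 176), whereas the falls from day 8 to 55 and from day 8 to 176 were called in all of these. The ileum difference was called in 9 of the 67. For the change from day 55 to 176, no gene of the 4 was called between the tissues (30.4% of all genes were), with 0 of 4 at an unadjusted p under 0.05 in limma.

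Both ACE probes took part in these differences, to an unequal extent. A_72_P232662 in ileum fell from 12.32 ± 0.98 (n = 11) at day 8 to 6.91 ± 0.76 (n = 11) at day 55 and 6.34 ± 0.53 (n = 11) at day 176, and in jejunum from 13.35 ± 0.58 (n = 12) to 11.41 ± 0.65 (n = 11) and 10.62 ± 0.80 (n = 11). A_72_P599978 in ileum fell from 15.57 ± 0.67 (n = 11) to 13.18 ± 0.30 (n = 11) and 12.20 ± 0.73 (n = 10). Jejunum exceeded ileum at day 55 by 4.53 on the former (SE 0.30, limma adjusted p = 1.43e-09) and by 1.57 on the latter (SE 0.19, adjusted p = 1.37e-06), and at day 176 by 4.29 and 1.89. At day 8 the former was called as well, with 0.98 (SE 0.26, adjusted p = 0.0395). The 2 probes carry different transcript records in the scanner files, both of which belong to ACE in the table used. Whether they are isoforms of 1 gene was not tested, and the ACE gene value is the mean of both. On A_72_P599978, jejunum T2 pool 8 of day 8 read 12.58 against 14.73 to 16.84 on the other 11 pools, an array on which ENPEP probe A_72_P604233 was low too.

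**Figure D3:**
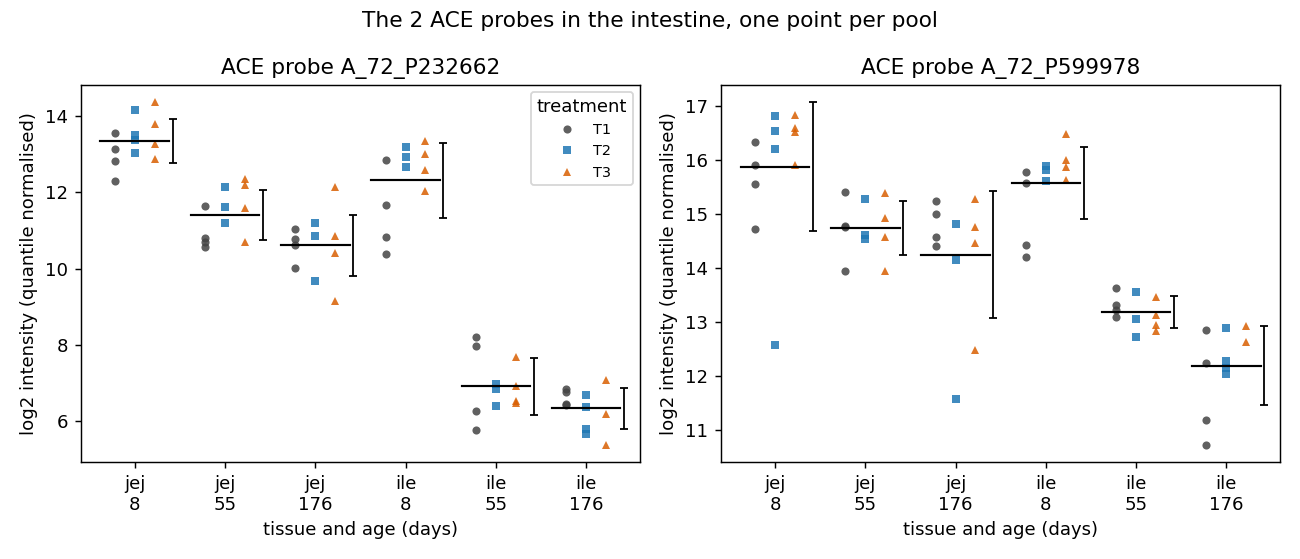
Log2 intensity (quantile normalised, y axis) of the 2 ACE probes in jejunum and ileum at day 8, 55 and 176 (x axis), 1 point per pool, coloured by treatment, with the mean (line) and SD (bar). On A_72_P232662 the ileum means go from 12.32 to 6.91 and 6.34, while on A_72_P599978 they go from 15.57 to 13.18 and 12.20.

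Markers of other cell types moved with age as well. All 3 endothelial markers on the array (CDH5, ENG and PECAM1, of 6 listed) fell from day 8 to 55 in both tissues. Their mean log2 intensity was 9.90 to 10.68 in jejunum at day 8 and 8.16 to 9.11 at day 55, and 8.65 to 10.06 and 7.52 to 8.33 in ileum. All 6 T cell markers (CD2, CD3D, CD3E, CD3G, CD4 and CD8A, of 8 listed) rose over the same span in both tissues, with a mean of 6.40 to 7.77 at day 8 and 8.72 to 9.93 at day 55 in jejunum, and of 6.63 to 7.29 and 8.63 to 9.35 in ileum. Of the 3 markers of absorptive epithelium on the array (APOA4, EPCAM and FABP2, of 10 listed), 2 fell in ileum and none was called in jejunum from day 8 to 55, and 2 were higher in jejunum than in ileum at day 55 and at day 176. Both B cell markers on the array (of 5 listed) rose in ileum from day 8 to 55, from a mean of 2.91 to 9.72 to one of 11.29 to 12.75, and neither was called in jejunum. Of 4 smooth muscle markers (of 7 listed) 3 fell in jejunum (10.78 to 12.06 at day 8, 9.41 to 10.18 at day 55) and 4 in ileum (9.91 to 11.81 and 9.06 to 9.85). The mean of the epithelial markers was 16.43 to 16.85 in jejunum and 16.56 to 16.84 in ileum at day 8, and 16.60 to 16.97 and 14.65 to 15.92 at day 55. The change from day 8 to 55 was called as different between the tissues for 3 of 3 epithelial markers and 1 of 3 endothelial markers, with jejunum above ileum as for ACE, and for 2 of 2 B cell markers in the other direction. Their part in the differences of ACE and DPP4 was not tested.

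Among the treatments, no member was called at day 8 and 176, and ANPEP was called at day 55. At day 8 none of the 24 differences (4 genes, both tissues, T2 compared to T1, T3 compared to T1 and T3 compared to T2) was called in limma, with 3 at an unadjusted p under 0.05. Of all genes 0.0156%, 0% and 0% were called in these 3 comparisons of jejunum, and 0.0936%, 0.877% and 0.0156% in ileum. The largest was that of ACE in ileum, where T1 pools had 12.52, 13.04, 12.97 and 14.31, T2 pools 14.54, 14.27 and 14.24, and T3 pools 14.23, 14.92, 13.83 and 14.50. Of the T1 pools all but pool 12 lay below all treated pools, and pool 12 lay among them. T3 exceeded T1 by 1.16 (SE 0.45, adjusted p = 0.145) and T2 exceeded T1 by 1.14 (SE 0.49, adjusted p = 0.234). When pool 12 was left out, which leaves 2 T1 pools with a value for ANPEP, the T3 difference was 1.53 (adjusted p = 0.0333) and that of ANPEP was called too (1.05, adjusted p = 0.0308). One of those 2 pools is pool 11, which stands apart, and over the fits that left out 1 array the ANPEP difference ran from 0.11 to 1.05 around its value of 0.69, so that single arrays decide these calls. At day 8 ileum T3 lay on another slide than ileum T1 and T2, and jejunum T1 on another than jejunum T2 and T3. In comparisons across these slides, treatment and slide cannot be told apart.

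At day 55 ANPEP was higher in T3 than in T1 in both tissues. The jejunum pools had 16.53, 16.72, 16.32 and 16.33 in T1, 17.33, 17.28 and 16.97 in T2, and 17.43, 17.33, 17.27 and 16.89 in T3. The ileum pools had 16.35, 15.95, 16.09 and 15.87 in T1, 15.85, 16.68 and 16.29 in T2, and 17.04, 17.08, 16.38 and 16.37 in T3. In both tissues all T3 pools lay above all T1 pools, in ileum by a narrow margin, and in jejunum so did all T2 pools. T3 exceeded T1 by 0.75 in jejunum (SE 0.21, limma adjusted p = 0.0243, 10.9% of all genes called) and by 0.65 in ileum (SE 0.21, adjusted p = 0.0408, 14.8% called). T2 exceeded T1 in jejunum by 0.72 (SE 0.23, adjusted p = 0.110) and was not called (2.86% of all genes). In the other comparisons of day 55, where no peptidase was called either, 1.46% of all genes were called for T3 compared to T2 of jejunum, and in ileum 0.0718% for T2 compared to T1 and 8.82% for T3 compared to T2. The difference of the T3 effect between the tissues was 0.10 and was not called (95% interval -0.52 to 0.72, SE 0.30, adjusted p = 0.888), and none of the 24 such differences over the 3 ages was called in limma, with 1 at an unadjusted p under 0.05. For these differences between the tissues 0%, 0.175% and 0.593% of all genes were called for T2 at day 8, 55 and 176, and 0.0406%, 6.04% and 0% for T3. With 75th percentile scaling the jejunum difference was 0.56 (adjusted p = 0.0673) and not called. Each T3 call was lost in 5 of 22 fits that left out 1 array, with adjusted p values up to 0.0772 in jejunum (without T3 pool 1, 2 or 3 or T1 pool 11 or 12) and 0.121 in ileum (without T3 pool 1 or 2 or T1 pool 10, 11 or 12). Of the markers of absorptive epithelium and of myeloid cells on the array (3 each) none was called for T3 compared to T1 in either tissue, while 3 of 6 T cell markers were higher in T3 of jejunum (mean 8.72 to 9.43 in T1 and 9.40 to 9.93 in T3) and of the endothelial markers 1 of 3 in T3 of jejunum (mean 8.16 to 8.54 in T1 and 8.83 to 9.11 in T3, without overlap) and 2 of 3 in T3 of ileum (7.52 to 8.03 and 7.81 to 8.33). Their part in the ANPEP difference was not tested. T1 and T2 shared a slide in each tissue and T3 lay on another, so that T3 and slide cannot be told apart. On the ileum T3 arrays of day 55, 42.4% to 52.0% of spots were well above background. On the ileum T1 and T2 arrays of that day this share was 62.6% to 73.1%.

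The difference came mostly from 1 of the 3 ANPEP probes. On A_72_P632095 the jejunum pools read 14.35, 14.63, 14.19 and 14.19 in T1, 16.49, 16.36 and 15.70 in T2, and 16.73, 16.60, 16.40 and 15.83 in T3. T3 exceeded T1 by 2.05 in jejunum (SE 0.32, limma adjusted p = 2.52e-04) and by 1.38 in ileum (SE 0.32, adjusted p = 0.00686), and T2 exceeded T1 in jejunum by 1.84 (SE 0.35, adjusted p = 0.00363), on arrays of 1 slide. On A_72_P177411 the T3 difference was -0.04 in jejunum (SE 0.26) and 0.29 in ileum (SE 0.26), and on A_72_P566249 it was 0.25 (SE 0.22) and 0.29 (SE 0.22), none of them called. With the median of the 3 probes in place of their mean no ANPEP difference between treatments was called. ENPEP had 1 probe of the same kind. A_72_P442776 read 10.82, 10.65, 10.38 and 10.47 in T1, 12.20, 12.19 and 11.96 in T2, and 12.48, 12.13, 11.76 and 12.18 in T3 of jejunum at day 55, a difference of 1.54 for T2 (SE 0.26, adjusted p = 0.00164) and of 1.56 for T3 (SE 0.24, adjusted p = 2.33e-04) compared to T1. On ENPEP probe A_72_P035326 T3 was lower than T1 in ileum by -0.61 (SE 0.17, adjusted p = 0.0204), and the ENPEP gene mean was not called in any treatment comparison.

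**Figure D4:**
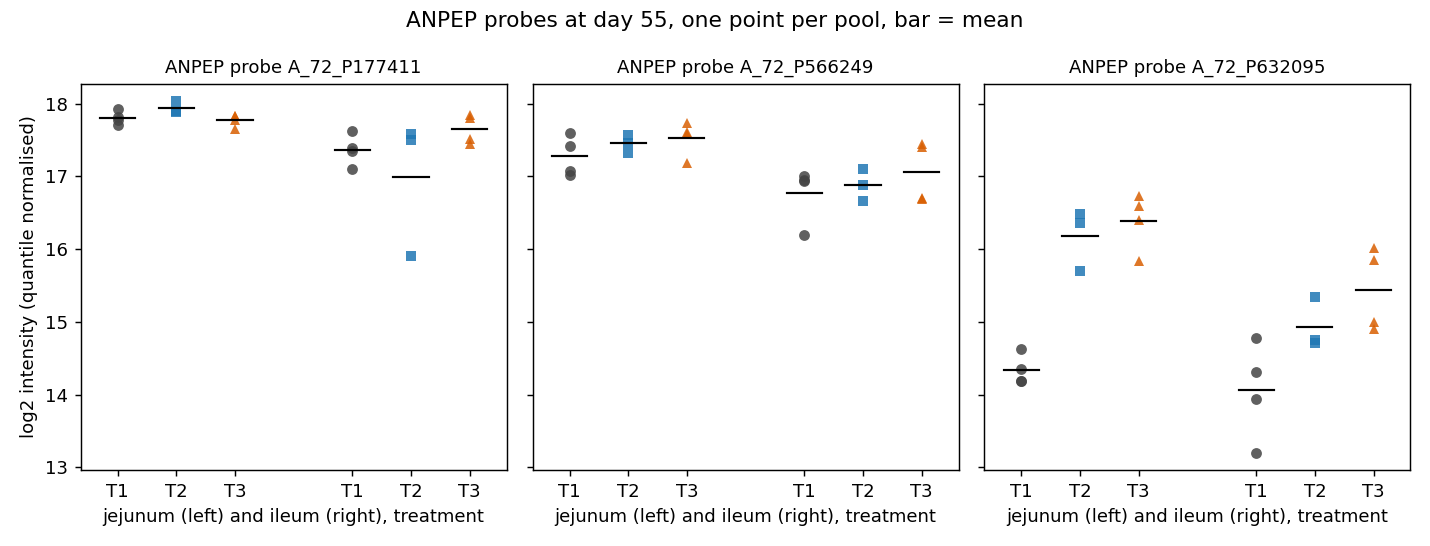
Log2 intensity (quantile normalised, y axis) of the 3 ANPEP probes at day 55 in T1, T2 and T3 (x axis) of jejunum (left) and ileum (right) in each panel, 1 point per pool, with the group mean as a bar. On A_72_P632095 the jejunum T1 pools lie between 14.19 and 14.63 and the T3 pools between 15.83 and 16.73, while T1 and T3 pools mix on A_72_P177411.

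At day 176 none of the 24 treatment differences was called in limma, with 2 at an unadjusted p under 0.05. Of all genes 1.4%, 0% and 0.936% were called in jejunum for T2 compared to T1, T3 compared to T1 and T3 compared to T2, and 0.00624%, 0% and 0% in ileum. The largest were those of jejunum T2 compared to T1, with -2.95 for DPP4 (SE 1.27, adjusted p = 0.183) and -2.50 for ENPEP (SE 0.93, adjusted p = 0.146). Both came from pool 8. When it was left out they were -0.14 and -0.75, and when T2 pool 6 was left out instead, which gives pool 8 more weight, both were called (-4.44 and -3.66). DPP4 in jejunum was 15.79, 15.48, 15.91 and 15.75 in T1, 15.75, 15.44 and 7.15 in T2, and 15.65, 15.50, 15.28 and 15.16 in T3. At day 176 ileum T1 lay on another slide than ileum T2 and T3, and jejunum T3 on another than jejunum T1 and T2. Treatment and slide cannot be told apart in comparisons across these slides.

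In blood at day 8 none of the 12 treatment differences was called in limma (0.00693%, 0.00347% and 0% of the 28849 genes tested), with 1 at an unadjusted p under 0.05. It was DPP4, whose log2 intensity in blood, normalised apart from the tissues, ran from 6.82 to 7.27 in T1, from 7.10 to 7.75 in T2 and from 6.98 to 7.54 in T3. T2 exceeded T1 by 0.50 (SE 0.20, adjusted p = 0.389), and the groups overlapped. Blood T1 lay on another slide than blood T2 and T3, so that T1 and slide cannot be told apart. DPP4 is also the T cell surface antigen CD26.

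The mean over the probes of a gene was lower in blood than in the intestine of the same age for all 4 genes. However, 1 of the 2 ACE probes was higher in blood on the scale used here, and most ANPEP and ENPEP probes were at background in blood. For this comparison each array was scaled to its own 75th percentile, and 83.1% of 33056 genes were called between blood and jejunum and 83.7% between blood and ileum, with a median difference over all genes of 1.28 and 1.43 in favour of blood. All 4 genes were called lower in blood in both comparisons. Of all genes 22.7% were called lower in blood than in jejunum and 22.1% lower than in ileum. For DPP4 blood minus jejunum was -3.78 (SE 0.12) and blood minus ileum was -4.03 (SE 0.13). Blood pools lay below all jejunum pools for each of the 4 genes, but the share of all genes without overlap was not counted.

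Most probes of the aminopeptidases gave no more than a bound in blood. ANPEP probe A_72_P177411 was well above background on 0 of 12 blood arrays, and jejunum was at least 1727-fold and ileum at least 1519-fold higher, taking as the level in blood the dimmest signal that counts as well above background on each array, or the signal of the probe itself where that was higher. For ENPEP probe A_72_P035326 (0 of 12) these bounds were 488-fold and 588-fold, and for A_72_P604233 (0 of 12) they were 171-fold and 277-fold. ANPEP probe A_72_P566249 and ENPEP probe A_72_P442776 were well above background on 1 of 12 blood arrays each. ANPEP probe A_72_P632095 differed from the other ANPEP probes in blood also. It was well above background on 12 of 12 arrays, from -1.09 over a median of 0.46 to 1.61 in blood, and blood minus jejunum was -5.34 (SE 0.27). DPP4 was well above background on 12 of 12 blood arrays, from 1.32 over 1.83 to 2.24, against 5.27 over 5.68 to 5.86 in jejunum and 5.55 over 5.70 to 6.61 in ileum.

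The ACE probes went in opposite directions in blood. A_72_P232662 was well above background on 0 of 12 blood arrays, and at least 114-fold higher in jejunum and 60.8-fold in ileum. A_72_P599978 was well above background on 12 of 12 blood arrays and ran from 7.46 over a median of 8.17 to 8.98 in blood, from 3.08 over 6.53 to 6.98 in jejunum, and from 4.46 over 6.02 to 6.77 in ileum. On this scale all blood pools lay above all pools of both tissues. By rank among the probes of its array, this probe did not stand higher in blood than in jejunum. Its median percentile was 98.61 in blood (98.26 to 98.91), 98.64 in jejunum (91.13 to 99.1) and 98.19 in ileum (95.85 to 98.82). Blood exceeded jejunum on this probe by 2.13 (SE 0.32, limma adjusted p = 4.06e-07) and ileum by 2.33 (SE 0.33, adjusted p = 1.25e-07). The direction of ACE in blood therefore depends on the probe, and for A_72_P599978 on the scale. The mean of the probes describes neither probe.

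**Figure D5:**
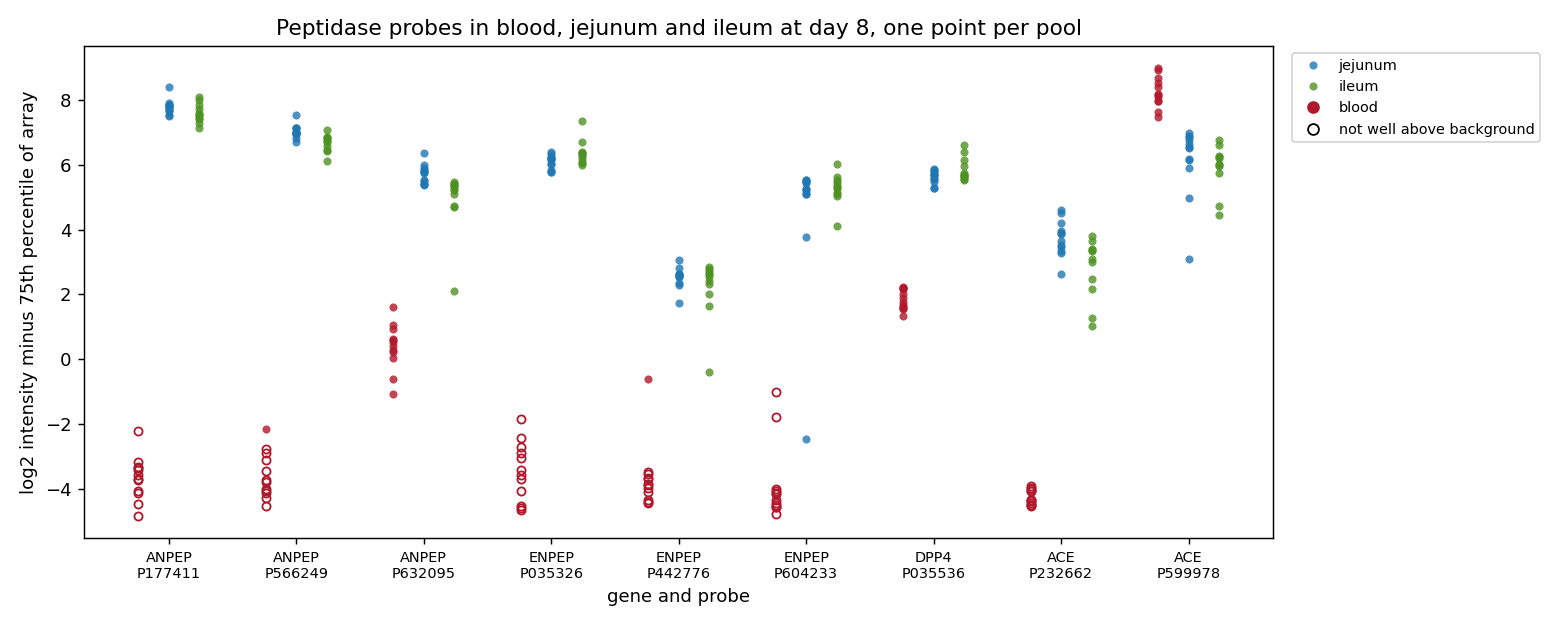
Log2 intensity minus the 75th percentile of the array (y axis) for each of the 9 probes (x axis) in blood, jejunum and ileum at day 8, 1 point per pool; open points were not well above background. The ACE probe ending in P599978 is the only one of the 9 that is higher in blood (7.46 to 8.98) than in jejunum (3.08 to 6.98) on this scale.

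Other membrane peptidases were looked at beside these 4. Of 12 listed, 5 were named on the array: GGT1 (gamma-glutamyltransferase), XPNPEP2 (which cuts before proline), TMPRSS15 (enteropeptidase, which activates trypsinogen), DPEP1 (a dipeptidase) and LNPEP (an aminopeptidase). None of the 5 was called between jejunum and ileum at day 8 (median 0.46, all genes -0.02). At day 55, 2 were higher in jejunum (TMPRSS15 by 6.60 and GGT1 by 0.85) and 2 were higher in ileum (DPEP1 with -2.06 and LNPEP with -1.19), with a median of -0.32 against -0.03 over all genes. At day 176, TMPRSS15 (5.18) was higher in jejunum and LNPEP (-0.81) in ileum. The ileum signal of TMPRSS15 was low at these ages, with a mean log2 intensity of 3.99 at day 55 and 3.98 at day 176. The jejunum pools of DPEP1 lay far apart, from 8.34 to 13.67 at day 55 and from 5.06 to 14.97 at day 176. In jejunum from day 8 to 55, TMPRSS15 rose by 3.52 and LNPEP by 0.64, while GGT1 fell by 2.32 and XPNPEP2 fell by 0.99. In ileum TMPRSS15 fell by 3.34 and GGT1 fell by 2.47, while LNPEP rose by 2.03. For T3 compared to T1 at day 55, XPNPEP2 in ileum was the only one of the 5 that was called (0.91, limma adjusted p = 0.0325).

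Of the partners of peptide digestion, 4 of 8 listed transporters were named on the array. SLC15A1, the peptide transporter, was higher in jejunum than in ileum by 1.34 at day 55 and 1.55 at day 176 and rose in jejunum by 1.27 from day 8 to 55. SLC1A1, a carrier of acidic amino acids, rose over that span by 1.41 in jejunum and 0.91 in ileum. From day 55 to 176 in jejunum 3 of the 4 fell (SLC3A1 with -0.68, SLC7A9 with -0.72 and SLC1A1 with -1.19, median -0.70 against 0.01 over all genes). Of the cytosolic peptidases 2 of 10 listed were named. DNPEP, an aspartyl aminopeptidase, was higher in jejunum than in ileum by 1.15 at day 55 and 0.96 at day 176, and THOP1, an oligopeptidase, fell in jejunum by 0.87 from day 8 to 55. Both were higher in T3 than in T1 of jejunum at day 55, by 1.30 and 0.65. BDKRB1, a receptor for bradykinin fragments, was the only named gene of 9 on the renin-angiotensin and bradykinin list. It was lower in jejunum than in ileum by -1.23 at day 55 and -2.69 at day 176. Of the DPP4 substrates, 4 of 8 were named: CXCL10 and CCL5, both chemokines, rose from day 8 to 55 in jejunum (1.82 and 2.39) and in ileum (1.81 and 2.28), CXCL12 rose in ileum (2.57), and GCG, the proglucagon gene, fell in jejunum by 0.73.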

How the data were processed

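Gene expression of pooled piglet samples was measured on 1-colour porcine Agilent arrays. The spot intensity was deposited by the authors as written by Agilent Feature Extraction 10.7.3.1, background-corrected and not normalised between arrays. The authors also deposited a table of log2 values, which was used only to compare names. The genome build is not given in the sources used here.

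The log2 of the processed signal (lowest value 1) was taken, marked spots were left out, and spots of a probe were averaged. The 67 intestinal arrays of all ages were quantile normalised together and the 12 blood arrays apart. The study's methods describe quantile normalisation for its day 8 arrays, with blood handled separately. There 1 jejunum and 1 ileum sample of day 8 were taken out after quality control. The day 8 set used here has 12 jejunum and 11 ileum arrays. Blood and intestine were compared over 35 arrays on log2 minus the 75th percentile. Probes were kept when they reached the 20th percentile on every array of at least 1 group (38605 of 43603 in the intestine, among them 9 of 9 of the peptidases, and 7 of 9 in blood). A gene symbol was available for 5461 probes. Probes of a gene were averaged, and an array lacking 1 of them was left out for that gene: ileum T1 pool 9 of day 8 for ANPEP, and ileum T3 pool 2 of day 176 for ACE and DPP4.

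Models of group means (tissue, age and treatment) used limma 3.58.1 (R 4.3.3), and p-values were adjusted by Benjamini-Hochberg over all genes. Differences between tissues and ages are means over the treatments, so they can deviate slightly from those of the plain means. The fits were tested on simulated data. The alternatives are described in the closing section. The peptidases and the gene lists were chosen with earlier results of these data known. All 4 peptidases and all their probes are named, as are listed genes on the array, and for each peptidase the 3 genes with the most similar group means, except for 1 gene that is not reported here. Pools are separate sets of piglets. The number of arrays limits the precision.

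Jejunum and ileum of a day 8 pool came from the same piglets, and the correlation of their deviations from the group means was 0.177 on average (6e-04 to 0.432, 11 pools). At day 55 and 176 the pools share a number, and the labels do not say whether they share piglets. The averages were 0.0618 and 0.0469 there, against -0.0225 and -0.015 for unlike pool numbers of the same treatment. Pools of 1 set of sows at day 8 correlated on average by 0.0928 for jejunum arrays, 0.0716 for ileum arrays and 0.143 for blood arrays.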

Additional observations from a re-analysis of the deposited data

Results flagged for a closer look

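In 7 of 63 groups of 4 pools 1 pool lay far from the others, where chance gives about 1 in 20. Of these, 5 were ENPEP in jejunum. Jejunum T2 pool 8 of day 8 had a log2 intensity of 11.77 against 14.32 to 14.56 in the other pools of its group, and T1 pool 9 of day 8 had 13.48 against 14.24 to 14.38. At day 55 T1 pool 11 had 12.95 against 14.09 to 14.31, and T3 pool 3 had 14.32 against 14.64 to 14.68. At day 176 T3 pool 4 had 10.997 against 13.91 to 14.34. In blood ENPEP was 4.22 in T2 pool 5 against 1.18 to 1.46, at intensities that were mostly not well above background, and DPP4 was 7.10 in T2 pool 8 against 7.66 to 7.75. The change of ACE from day 8 to 55 differed between jejunum and ileum by 2.42 log2 units (SE 0.37, limma adjusted p = 8.44e-07). The causes were not tested.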

How the results depend on the processing

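Of 1565 differences recomputed under 19 kinds of settings, 28 lost their call, 10 gained a call, 5 turned, and 112 that were never called changed sign. With the brightest probe standing for a gene, ACE in blood turned to 2.33 against ileum and 2.13 against jejunum, ANPEP in T3 compared to T1 of jejunum at day 55 to -0.036 and ENPEP in ileum to -0.61 (called). Without the 3 arrays that stand apart, a setting chosen after seeing the data, DPP4 in jejunum minus ileum at day 176 turned to 0.71. The number of calls among the 4 genes for the ileum ages was 3, 5 without these arrays, and 2 with 75th percentile scaling or without the filter on low values. For the jejunum ages it was 7, 4 without them, and 3 with slide as a random block. For the difference of the age changes it was 1, 3 with 75th percentile scaling and 2 without the 3 arrays. Jejunum minus ileum had 2 calls at day 176, and 1 with the brightest probe or within the slide that holds both tissues. It had 2 at day 55, 3 with 75th percentile scaling (DPP4 added), and 1 with that day normalised alone, the brightest probe or the slide block, and 0 at day 8, and 1 without the 3 arrays. The treatment calls at day 55 were 2, and 1 with the brightest probe, with 75th percentile scaling or with only probes well above background, and 0 with the median of the probes. Leaving out 1 array at a time gave 2 to 5 calls for the ileum ages, 4 to 8 for the jejunum ages, 1 to 2 for the difference of the age changes, 0 to 2 for jejunum minus ileum at day 8, 1 to 2 at day 55 and 2 to 3 at day 176, and for treatment 0 to 2 at day 8, 1 to 2 at day 55 and 0 to 2 at day 176. The causes were not tested.

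With a replicate block for the pools of the same piglets at day 8, jejunum minus ileum kept 0 calls and blood against intestine 8, and a block for the sow sets left 0 treatment calls at day 8. At later ages the pool number is only a name. A block on it gave 2 calls at day 55 and 2 at day 176 for jejunum minus ileum, 5 for the jejunum ages and 2 for the ileum ages, with ACE from day 55 to 176 in jejunum (adjusted p = 0.0581), DPP4 over that span in ileum (adjusted p = 0.104) and DPP4 from day 8 to 55 in jejunum (adjusted p = 0.064) no longer called in limma.

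The 75th percentile scaling moved the median of all genes by -0.52 to 0.58, by over 0.1 in 19 of 35 comparisons. The share of called genes that were higher went from 75.1% to 94.2% for jejunum minus ileum at day 8, from 49.8% to 23.6% at day 55 and from 52.5% to 72.2% at day 176. For ages it went from 54.5% to 82.4% (day 55 to 176) and from 55% to 72% (day 8 to 176) in jejunum, and from 51.5% to 71.9%, 55.3% to 36.7% and 53.8% to 66.1% over the 3 spans in ileum. For T3 compared to T1 of ileum at day 55 it went from 56.3% to 86.2%. With it ANPEP rose in jejunum from day 8 to 55 (0.83), its ileum difference from day 55 to 176 was 0.09 in place of -0.57, called in neither, ENPEP in jejunum from day 8 to 176 lost its call (-0.71), and ENPEP in jejunum minus ileum at day 55 was 0.37 in place of -0.15, called in neither. A fit without the arrays that the 2 sources name differently could not be made, as 2 groups were lost at day 8 and 3 at day 55, nor could slide be a block between treatments, as each group lies on 1 slide. Signals not well above background limit most aminopeptidase values in blood.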

Other observations

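The genes most like each peptidase were sought among 2293 named genes by the correlation of their means over the 18 groups of jejunum and ileum, groups that share arrays, ages and slides. For ANPEP they included VIPR1, a receptor for vasoactive intestinal peptide (Pearson's r 0.899), and FAAH, a fatty acid amide hydrolase (0.880), and both were among the first 3 without the 3 arrays that stand apart too. For ACE they were SLC28A1, a nucleoside carrier (0.979), SLC5A11, an inositol carrier (0.975), and CIDEC, a lipid droplet protein (0.970), of which SLC28A1 was among the first 3 without those arrays (0.981). For ENPEP they were PSMD4 (0.935), PPP2CA (0.923) and OTUB1 (0.922), and for DPP4 IDH3B (0.913), PSME2 (0.911) and COPS5 (0.904). None of these 6 was among the first 3 without the 3 arrays, where COPS5 ranked 115th for DPP4. Among the peptidases themselves the correlation of ENPEP with DPP4 was 0.800 over all arrays and 0.289 without the 3 arrays, and that of ANPEP with DPP4 was 0.374 and 0.643.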
